A study of Mus musculus with 5 samples.

Results

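Erythroid cells from the spleens of UVB-irradiated mice were compared with those of mice carrying melanoma, as 4 of the 5 RNA-seq libraries of the study. The members were taken by their labels, 2 libraries from UVB spleens and 2 from tumor spleens, so both sides come from the same organ. The remaining library, from untreated bone marrow (control), is given beside results as a reference level. Red cell precursors had been pulled out with magnetic beads against CD71, the transferrin receptor encoded by Tfrc. UVB was given to the skin at 50 mJ/cm2, and melanoma was started by injecting B16 cells, a transplantable mouse line, under the skin. The strain label reads C57BL/6 for the control and both UVB libraries, C57BL/7 for tumor 1 and C57BL/8 for tumor 2, and it was not tested whether the last pair are real strain differences. Age, time after treatment, tumor size and pooling are not stated in the labels. No untreated spleen library is among the 5, so a difference between the treatments cannot be assigned to one of them from the spleens alone. Nothing states that libraries of a group came from separate cultures or animals beyond their replicate labels, so p-values cover the variation among these libraries alone, part or all of which may be technical.

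The mouse spleen is a site of stress erythropoiesis, in which red cell precursors expand outside the bone marrow under bleeding, inflammation or tumor growth. Such precursors carry Kit, the receptor for stem cell factor, and respond to erythropoietin through the receptor Epor and the transcription factor STAT5, and to BMP and hedgehog signals. As they mature they shut down ribosome production and proliferation, while macrophages of erythroblastic islands feed them and take up their nuclei. CD71 is also carried by other dividing cells, and beads can hold back cells attached to a precursor.

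Read depth was similar in all libraries, with 5003923 to 5921270 reads in genes, and 1 read was worth 0.168 to 0.198 CPM, the read count scaled to library depth. All levels below are CPM as deposited, in the order UVB 1, UVB 2, tumor 1, tumor 2. Differences are UVB minus tumor on the log2(CPM + 1) scale with their standard error (SE), and this scale understates the change of low genes. A gene was called at an adjusted p under 0.05 in limma's test, fitted over 15006 genes whose mean over the 5 libraries reached 1 CPM. The UVB libraries were close to each other (278 genes more than 2-fold apart; r = 0.989 by Pearson, over genes, which are not replicates), whereas 1703 genes were over 2-fold apart between tumor 1 and tumor 2 (r = 0.971). Of those 1703 genes, 1608 were lower in tumor 1. Tumor 1 was also farther from the UVB libraries (4162 and 3969 genes over 2-fold apart) than tumor 2 was (2045 and 1879). Tumor 1 therefore stands apart, and list medians are given below with it and without it.

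Red cell marker genes were present in all 4 spleen libraries. Tfrc was at 776, 719, 802 and 716 CPM and the erythroid transcription factor gene Klf1 at 187, 184, 215 and 190 CPM. Of the 29 erythroid core genes 28 were tested and 1 had 0 reads in every spleen library. Xist, transcribed from the inactive X chromosome of female cells, was at 1067 to 1163 CPM in the 4 libraries, and 3 of the 4 Y-linked genes listed had 0 reads in all of them.

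Markers of other cells were present as well, and they differed between the groups and between the tumor libraries. Summed over the 15 matched B cell markers, levels were 3288 and 3182 CPM in UVB libraries, 923 in tumor 1 and 2358 in tumor 2, against 1925 in the control. None of these 15 was called by limma (adjusted p 0.0941 to 0.279) or edgeR, and 6 were by DESeq2, all lay above 0, and their median difference was 1.30, or 0.45 without tumor 1. Macrophage markers of the spleen and of erythroblastic islands summed to 5545, 4810, 2085 and 3053 CPM, against 4210 in the control. T and NK cell markers summed to 181, 112, 34.4 and 70.9 CPM, against 199 in the control. The T and NK list was above 0 in all 14 tested of 19 members. Neutrophil markers, at 167, 160, 111 and 367 CPM, were highest among the spleens in tumor 2, against 1504 in the control. Every one of these sums was lowest in tumor 1. Of the 10 melanocyte markers, 4 pigment cell genes, Mlana, Tyr, Slc45a2 and Trpm1, had 0 reads in all spleen libraries (a count of 0 allows up to 3 reads in a library). Mitf, the pigment cell regulator that macrophages and mast cells also use, was at 40.6, 37.2, 6.56 and 19.2 CPM (adjusted p = 0.0797), with both tumor libraries below both UVB libraries. In bulk RNA, fewer cells of a type and less RNA per cell cannot be told apart, and the part of the other cells in the results below was not tested except where stated.

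Between the spleens 2557 of 15006 tested genes were called, 17.0% of them, with 705 higher in UVB (4.70%) and 1852 higher in tumor (12.3%). Counts of limma calls in every list below are to be read beside these shares. The libraries of both groups did not overlap for any called gene, which also held with UVB higher for 34.8% and with tumor higher for 38.4% of all tested genes. Genes called higher in UVB differed by a median of 1.39 on the log2 scale (514 at least 2-fold and 88 at least 4-fold). Those called higher in tumor were more numerous and differed less, by a median of 0.91 (758 at least 2-fold, 129 at least 4-fold and 27 at least 8-fold). On whole reads recovered from the CPM values edgeR called 684 higher in UVB (4.56%) and 1324 higher in tumor (8.82%), and its calls included 619 of the 705 and 1323 of the 1852. DESeq2 called 1421 higher in UVB (9.47%) and 1146 higher in tumor (7.64%), so the share of calls higher in UVB was 27.6% with limma, 34.1% with edgeR and 55.4% with DESeq2. With any 1 spleen library left out, the difference kept its sign in every such fit for 691 of the 705 and 1843 of the 1852. The spread in such a fit comes only from the pair of the other group. Its calls therefore depend on how close that pair is and are not counted here.

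**Figure D1:**
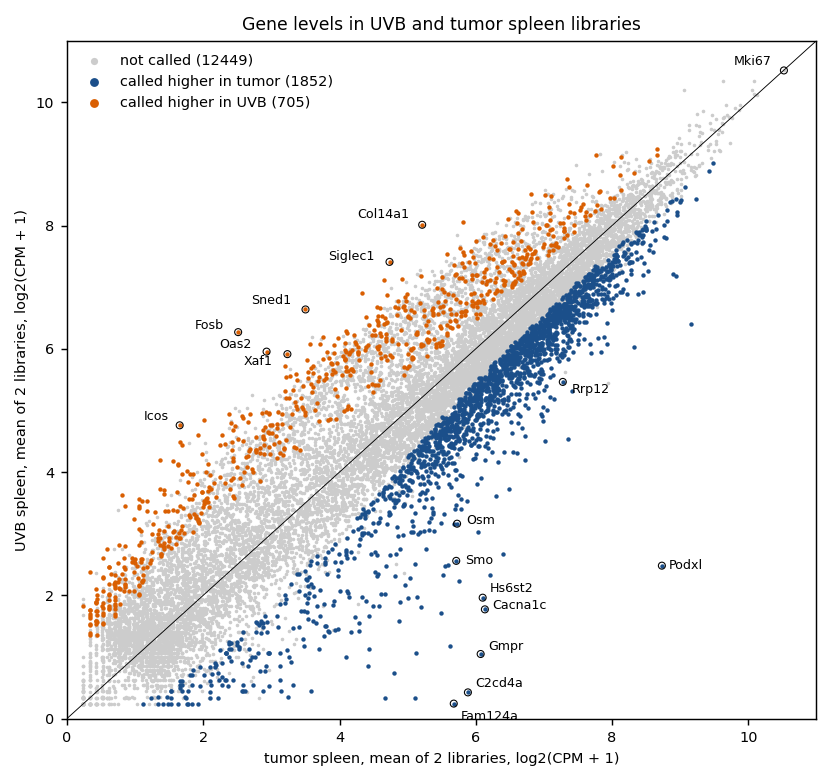
Mean log2(CPM + 1) of 2 UVB libraries (vertical axis) against 2 tumor libraries (horizontal axis), 1 point for each of 15006 tested genes. Points called higher in UVB (705, orange) and in tumor (1852, blue) lie on either side of the line of equality, Podxl lies far below it, and Mki67 lies on it.

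The control library lay nearer to the UVB mean for most called genes. This was so for 489 of the 705 genes higher in UVB and for 1319 of the 1852 genes higher in tumor. Of the 705, 46 had the control below all 4 spleen libraries and 92 above all of them. Because the control is 1 library from another organ, this describes levels and is no test of either treatment.

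The largest difference of all was in Podxl, and the genes highest in tumor spleens relative to UVB spleens were a mixed group of surface proteins, channels and enzymes. Podxl encodes podocalyxin, a sialomucin of the CD34 family found on endothelium, podocytes and blood progenitors (chr6:31519488-31563981 on GRCm38, minus strand). It stood at 3.77 and 5.54 CPM in the UVB libraries and at 433 and 416 CPM in the tumor libraries, with 9.59 CPM in the control. The ratio of the group means was 91.2 (log2 difference -6.25, SE 0.20, adjusted p = 0.0200). Both tumor libraries were high and all other libraries low, so tumor 1 and tumor 2, which differ in so many genes, were alike here.

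C2cd4a (chr9:67830489-67832330), which encodes a nuclear protein with a C2 domain, had 2 reads in the UVB libraries together and 647 in the tumor libraries, a ratio of reads of 319 (95% interval 87.9 to 2638). Fam124a (chr14:62555737-62608486) had 0 reads in the UVB libraries and 563 in the tumor libraries, at least 185-fold higher when the UVB group is set at its floor of 3 reads. Ano1, a calcium-activated chloride channel gene, had 1 read against 373, a ratio of 368 (95% interval 65.6 to 14555). In each of the 3 genes both tumor libraries lay between 33.3 and 60.8 CPM while no UVB library exceeded 0.503 CPM. Read ratios are scaled to library depth, and their intervals and floors cover counting error only.

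The rest of the 12 largest differences in this direction ran from -5.02 to -3.79. Gmpr, which converts GMP back to IMP, was at 0.595, 1.68, 76.1 and 57.7 CPM, and at 22.0 CPM in the control. Cda, which deaminates cytidine, was at 1.39, 0.839, 34.95 and 32.7 CPM, and at 0.698 CPM in the control. An enzyme of purine and an enzyme of pyrimidine salvage were thus both higher in tumor than in UVB spleens. The control lay between the groups for Gmpr and below both groups for Cda. Cacna1c, the pore subunit of an L-type calcium channel, was at 1.78, 3.19, 83.0 and 57.7 CPM. Hs6st2, a sulfotransferase that modifies heparan sulfate, was at 3.77, 2.18, 69.4 and 66.0 CPM. Ikzf4, an Ikaros family transcription factor, was at 1.39, 0.168, 32.6 and 22.2 CPM, and Gdf3, a ligand of the TGF-beta family, at 4.36, 3.69, 75.4 and 70.5 CPM. Arhgdig, an inhibitor of small GTPases, and the kinase gene Pak6 were at least 39.97 CPM in the tumor libraries and at most 3.86 CPM in the UVB libraries.

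**Figure D2:**
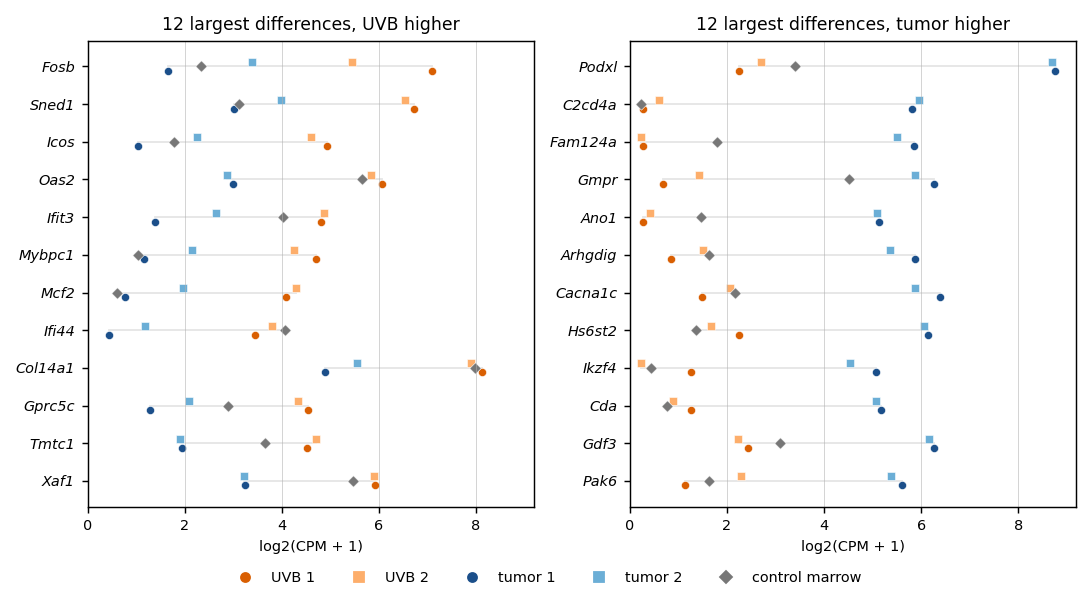
Level in each library, as log2(CPM + 1), of the 12 genes with the largest called difference in each direction. The left panel has both UVB libraries above both tumor libraries, with tumor 2 nearer to UVB than tumor 1 for most genes. The right panel has both tumor libraries near each other and far above UVB. They also lie far above the control except for Gmpr, whose control lies nearer to tumor than to UVB.

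Genes that build ribosomes had the highest share of calls among the 43 gene lists. Of 20 ribosome biogenesis genes 19 were called higher in tumor, against 12.3% of all tested genes, with a median difference of -1.05 beside -0.01 over all tested genes. Without tumor 1 the median was -1.06. Their summed level was 1604 and 1611 CPM in the UVB libraries and 3315 and 3450 CPM in the tumor libraries, a ratio of 2.10, with 1868 CPM in the control. Tumor 1 and tumor 2 were thus at like levels in this sum.

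Rrp12, needed to export ribosomal subunits from the nucleus, was at 41.6, 44.6, 148 and 160 CPM (difference -1.81, SE 0.11, adjusted p = 0.0200). Rrn3, which brings RNA polymerase I to the ribosomal RNA genes, was at 74.6, 75.5, 181 and 183 CPM (difference -1.27, SE 0.09, adjusted p = 0.0200). Nolc1, a nucleolar phosphoprotein, was at 121, 116, 294 and 301 CPM (difference -1.32, SE 0.09). The groups were far apart and the replicates close in each of them. The polymerase I subunits Polr1a and Polr1b, the rRNA-processing factors Nop2, Nop14, Nop56, Nop58, Bop1, Pes1 and Wdr12, and the abundant nucleolar proteins Ncl and Npm1 were called in the same direction. Fbl, the methyltransferase of box C/D particles, was the exception at 11.3, 12.1, 17.2 and 15.4 CPM (adjusted p = 0.166). Cytosolic ribosomal protein genes lay below 0 in 30 of 32 cases, with a median of -0.31. Of these 32, 2 were called higher in tumor, under the 12.3% of all tested genes, and these were Rpl27 and Rps19, neither called with DESeq2 (adjusted p = 0.102 and 0.135). Reads of ribosomal protein genes can be shared with their processed pseudogenes, so these levels are uncertain.

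Some genes of DNA replication were lower in UVB as well. Of 32 replication genes 14 were called higher in tumor, beside 12.3% of all tested genes, all 32 lay below 0, and the median was -0.53 (-0.39 without tumor 1). With edgeR 6 of the 32 were called and with DESeq2 7. The summed level was 4040 CPM in both UVB libraries, 6478 in tumor 1, 5448 in tumor 2 and 5188 in the control. Pold2, a subunit of DNA polymerase delta, was at 48.2, 46.3, 114 and 107 CPM, and Mcm10, a factor that starts replication forks, at 113, 121, 250 and 209 CPM. Gins2, part of the replicative helicase, was at 22.8, 21.3, 59.1 and 47.0 CPM. None of the 20 mitosis genes was called by limma, edgeR or DESeq2 (3 at unadjusted p under 0.05), with a median of -0.19, or -0.01 without tumor 1. Mki67, the proliferation marker Ki-67, was at 1477, 1453, 1553 and 1392 CPM (difference -0.01, SE 0.12, adjusted p = 0.978), and its sign turned with the scaling.

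In the lists of glycolysis, oxidative phosphorylation, cholesterol synthesis and ATF4 targets, every limma call was higher in tumor. In glycolysis 7 of 19 were called, beside 12.3% of all tested genes. EdgeR called 5 higher in tumor, and DESeq2 called 5 higher in tumor and 1 higher in UVB. Among the 7 were Pklr, the red cell and liver pyruvate kinase, at 69.8, 74.3, 250.1 and 222 CPM, and the phosphofructokinase gene Pfkm at 68.8, 73.0, 207 and 177 CPM. The glucose transporter gene Slc2a3 was at 55.7, 52.5, 122 and 124 CPM. The median of the glycolysis list was only -0.08 (-0.21 without tumor 1) and 9 of the 19 lay above 0, so its called members stood apart from the others. Oxidative phosphorylation had 9 of 30 called, beside the same 12.3%, with small differences (Ndufs1 of complex I at 112, 105, 177 and 175 CPM) and a list median of -0.36. Of these 30, edgeR called 2 and DESeq2 1.

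Cholesterol synthesis had 4 of 17 called, beside 12.3% of all tested genes. Sqle, squalene epoxidase, was at 39.9, 35.1, 125 and 103 CPM. In the list of ATF4 targets and amino acid enzymes 3 of 18 were called higher in tumor, near the 12.3% of all tested genes, with a list median of -0.13 (-0.01 without tumor 1). Each is an enzyme of serine or proline synthesis. Psat1, of serine synthesis, was at 27.0, 35.9, 121 and 143 CPM, Phgdh, of the same pathway, at 8.72, 9.23, 18.4 and 19.9 CPM and Aldh18a1, of proline synthesis, at 94.8, 109, 206 and 210 CPM. Phgdh was not called with DESeq2 (adjusted p = 0.104). Heat shock genes had 5 of 14 called higher in tumor, Hsph1, Hspd1, Hspe1, Bag3 and Hsp90aa1, beside 12.3% of all tested genes, and all 14 lay below 0 with a median of -0.51. With edgeR 3 were called and with DESeq2 2, Bag3 not among the latter (adjusted p = 0.093). Hsph1, a partner of Hsp70, was at 125, 89.1, 233 and 273 CPM. The mitochondrial chaperonin gene Hspd1 was at 49.8, 44.0, 87.6 and 90.8 CPM. The unfolded protein response list had 0 of 18 called by limma, edgeR or DESeq2 (4 at unadjusted p under 0.05) and a median of 0.08.

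**Figure D3:**
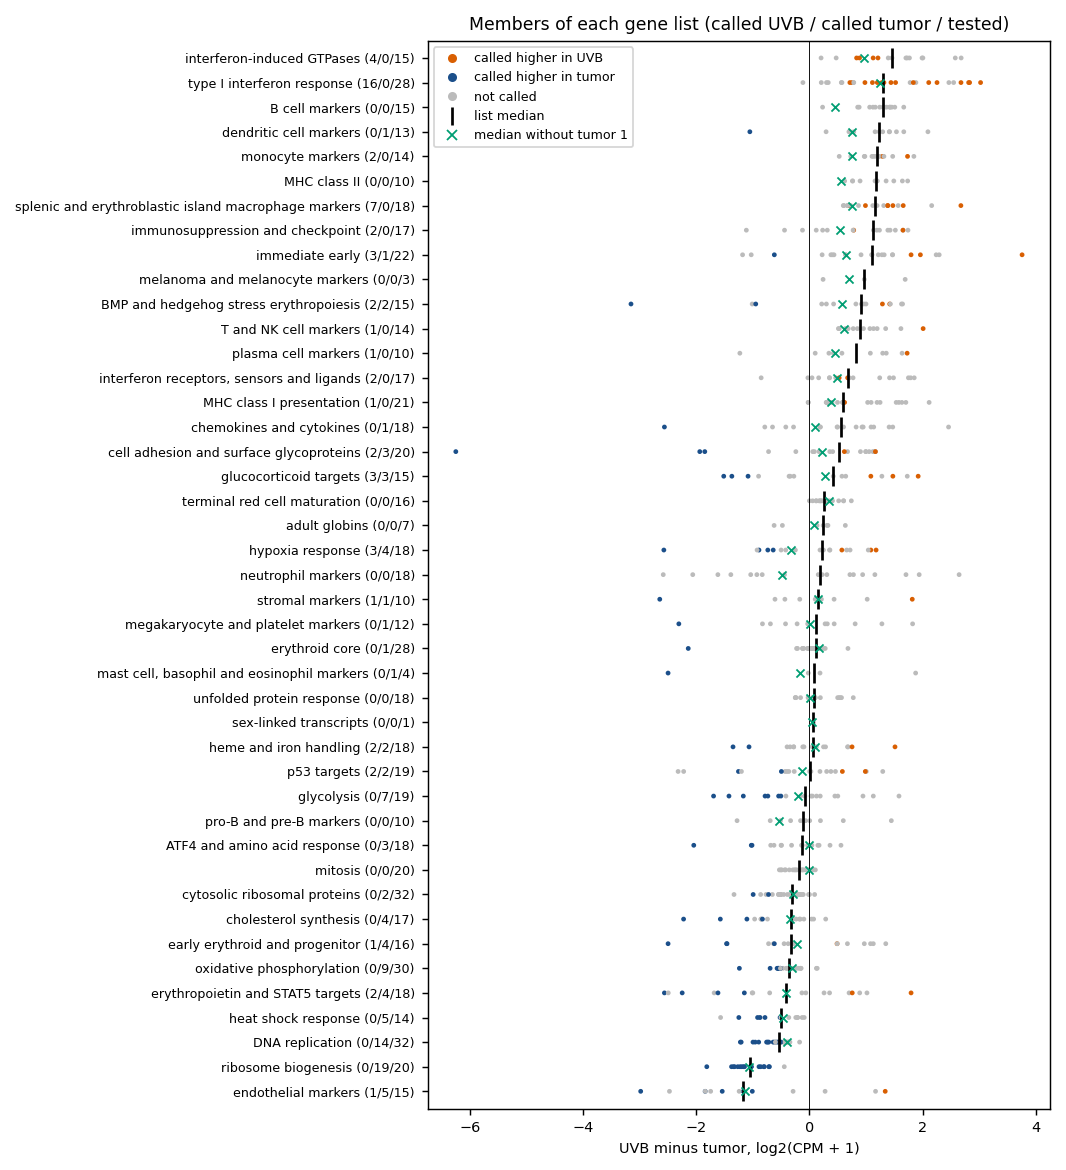
Difference between UVB and tumor spleen, on the log2(CPM + 1) scale, for each tested member of 43 gene lists (points), with the list median (bar) and the median without tumor 1 (cross). Ribosome biogenesis lies wholly left of 0 with bar and cross together, and type I interferon response lies right of 0 but for 1 gene, with bar and cross close. For macrophage, monocyte, dendritic, B, plasma, and T and NK cell markers the crosses lie nearer to 0 than the bars. For neutrophil, pro-B and pre-B, and mast cell markers the crosses lie farther from 0, on the tumor side.

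In the other direction, the 12 largest differences were led by Fosb, Sned1 and Icos and held 4 interferon-induced genes. Fosb, a transcription factor of the AP-1 family (chr7:19302696-19310051 on GRCm38), was at 135 and 42.8 CPM in the UVB libraries and 2.13 and 9.40 CPM in the tumor libraries (difference 3.76, SE 0.82, adjusted p = 0.0479). All 4 libraries of Fosb differed widely, and its call was lost with a pseudocount of 0.25 (adjusted p = 0.052). Sned1, an extracellular matrix protein, was at 105, 92.4, 7.10 and 14.8 CPM (difference 3.14, SE 0.36, adjusted p = 0.0216). Icos, a costimulatory receptor of T cells, was at 29.3, 23.2, 1.06 and 3.80 CPM, and Col14a1, a chain of collagen XIV, at 280, 237, 28.6 and 45.6 CPM with 253 CPM in the control. Mybpc1, Mcf2, Gprc5c and Tmtc1 completed the 12 largest together with Oas2, Ifit3, Ifi44 and Xaf1. Mcf2, which activates small GTPases, was at 16.1, 18.6, 0.710 and 2.89 CPM. For 574 of the 705 genes higher in UVB tumor 2 lay between tumor 1 and the UVB libraries.

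Type I interferon response genes had the highest share called higher in UVB among the 43 lists. Type I interferons act through the receptor subunits Ifnar1 and Ifnar2 and a complex of transcription factors, STAT2 and IRF9 among them, which binds a promoter element called the interferon-stimulated response element. Of 28 type I interferon response genes 16 were called higher in UVB and 0 higher in tumor, against 4.70% and 12.3% of all tested genes. With edgeR 14 were called and with DESeq2 20, all higher in UVB. The list median was 1.30, and 1.25 without tumor 1. Summed levels were 3458 and 3491 CPM in the UVB libraries, 1983 and 1931 CPM in the tumor libraries and 2843 CPM in the control, which therefore lay between the groups. Tumor 1 and tumor 2 were alike in this sum. Single members were alike in both (Oas2, 6.92 and 6.33 CPM) or were not (Ifit3, 1.60 and 5.25 CPM). The part of leukocytes in these levels was not tested.

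Oas2, an oligoadenylate synthetase that senses double-stranded RNA (chr5:120730333-120749853, minus strand), was at 66.2, 56.2, 6.92 and 6.33 CPM (difference 3.02, SE 0.18, adjusted p = 0.0200). Xaf1, a proapoptotic interferon target, was at 59.7, 58.9, 8.52 and 8.32 CPM (difference 2.68, SE 0.15, adjusted p = 0.0200). Dhx58, a regulator of the RNA sensors RIG-I and MDA5, was at 63.1, 69.8, 19.2 and 16.6 CPM. In these 3 genes the replicates were close on both sides. Ifi44 was at 9.91, 12.9, 0.355 and 1.27 CPM, Ifit3, which blocks viral RNA, at 27.0, 28.4, 1.60 and 5.25 CPM and Ifit1, of the same family, at 64.4, 73.3, 25.7 and 23.7 CPM. Control levels were 15.7 CPM for Ifi44, 15.2 for Ifit3 and 68.7 for Ifit1.

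Transcription factor genes of the pathway were called too. Stat2 was at 174, 176, 69.4 and 82.1 CPM, and Irf7, which drives interferon genes, at 189, 166, 83.9 and 62.4 CPM. Of 17 tested receptors, sensors and ligands 2 were called, both higher in UVB. These were Ifnar1, at 188, 168, 100.4 and 122 CPM, and Mavs, the adaptor of RNA sensors, at 144, 130, 91.0 and 98.6 CPM, which was not called with DESeq2 (adjusted p = 0.053). Interferon-induced GTPases, which attack the vacuoles of intracellular microbes, had 4 of 15 called, all higher in UVB (Irgm2, Igtp, Ifi47 and Tgtp2). Their median of 1.46 was 0.96 without tumor 1. Irgm2 was at 117, 115, 49.7 and 49.7 CPM. The annotation of Irgm2 overlaps Igtp on the same strand, and Tgtp2, Ifit3 and Oas1a have close paralogs, so reads of these genes may be split or shared.

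Promoters of these genes were searched for the response element because most of its members were higher in UVB together. The element was taken as GAAA, any 2 bases and GAAA again, on either strand, overlapping copies included, in the 250 bases before the annotated start. They occurred in 3.04% of all 27025 promoters of the RefSeq table (GRCm38.p6) and in 2.74% of the 9976 promoters of tested genes. Among genes called higher in UVB the share was 7.07% (35 of 495 with a promoter entry), and among genes called higher in tumor 2.31% (32 of 1386). Of the interferon response list 8 of 19 promoters held the element, and of the GTPases 9 of 10. The following stretches hold it for called genes, on the strand of the gene, with the element in capitals (on the opposite strand it reads TTTC, any 2 bases, TTTC).
Ifit1, chr19:34640765-34640833, plus strand: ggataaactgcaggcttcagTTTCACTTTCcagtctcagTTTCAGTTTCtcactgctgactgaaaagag
Ifit3, chr19:34583353-34583436, plus strand: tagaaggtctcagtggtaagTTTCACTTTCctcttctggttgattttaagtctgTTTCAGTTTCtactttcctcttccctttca
Stat2, chr10:128270256-128270305, plus strand: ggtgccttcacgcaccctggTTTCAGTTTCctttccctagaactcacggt
Oas1a, chr5:120907526-120907565, minus strand: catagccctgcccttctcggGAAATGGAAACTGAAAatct
Oas3, chr5:120777705-120777754, minus strand: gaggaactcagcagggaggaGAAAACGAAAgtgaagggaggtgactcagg
Irgm2, chr11:58214893-58214942, plus strand: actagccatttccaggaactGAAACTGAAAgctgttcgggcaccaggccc
Igtp, chr11:58199502-58199551, plus strand: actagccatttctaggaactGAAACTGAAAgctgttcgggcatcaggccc
Tgtp2, chr11:49064253-49064302, minus strand: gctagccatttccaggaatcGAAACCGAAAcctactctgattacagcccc

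Ifit1 and Ifit3 hold 2 separate copies each and Oas1a holds 2 that overlap, and the Irgm2 and Igtp stretches are nearly the same sequence. A match of letters is no measured binding site. The same search for the E-box CACGTG, the element read by MYC, found it in 8.29% of promoters of tested genes, 9.96% of those called higher in tumor, 5.25% of those called higher in UVB and 2 of 16 ribosome biogenesis promoters.

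Antigen presentation genes gave few calls with limma. Of 21 MHC class I genes 19 lay above 0, with a median of 0.59 (0.39 without tumor 1), and DESeq2 called 7 higher in UVB. With limma 1 was called, the nonclassical H2-T23, at 121, 116, 75.4 and 77.95 CPM, and B2m, the common light chain, was at 135, 116, 98.1 and 106 CPM (adjusted p = 0.141). None of 10 MHC class II genes was called by limma or edgeR (6 at unadjusted p under 0.05), and 5 were with DESeq2. The class II sum was 1583 and 1463 CPM in the UVB libraries, 509 in tumor 1 and 1068 in tumor 2, and the list median of 1.18 was 0.55 without tumor 1. Cd74, the invariant chain, was at 258, 229, 128 and 195 CPM (adjusted p = 0.114). The class II sum and Cd74 were lowest in tumor 1, like the B cell sum given above, and the part of B cells in them was not tested.

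**Figure D4:**
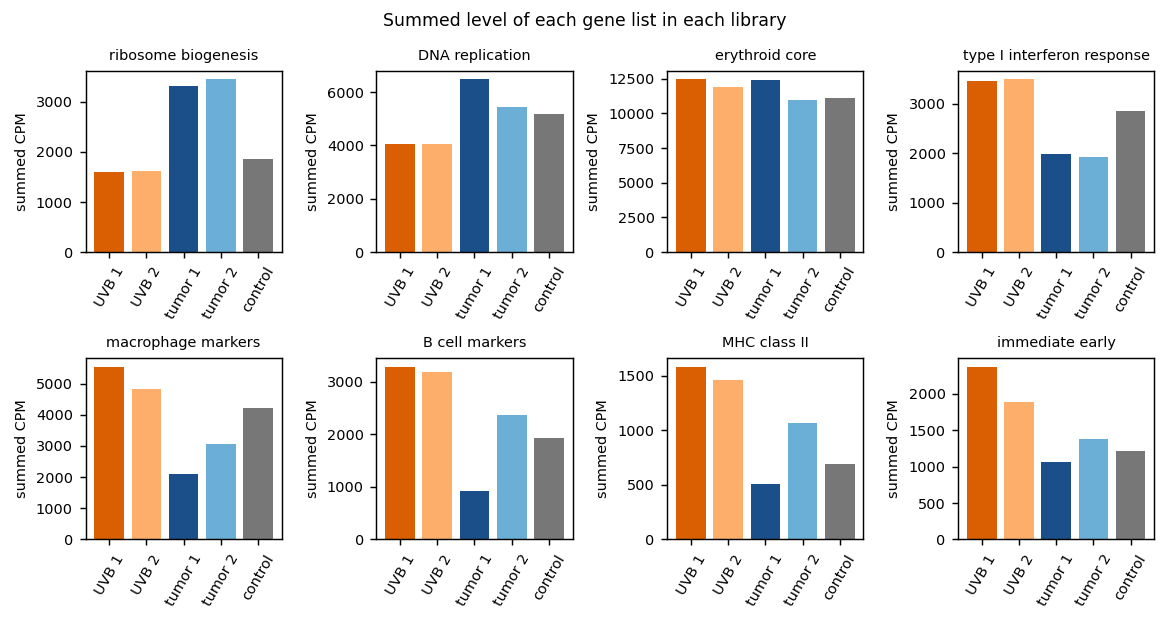
Summed CPM of the matched members of 8 gene lists in each library (bars, 1 value each, no error). Ribosome biogenesis and type I interferon response have like values within each spleen group, whereas B cell and MHC class II sums are lowest in tumor 1 and higher in tumor 2.

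Immediate early genes, which cells switch on soon after a stimulus, had 3 of 22 members called higher in UVB and 1 higher in tumor. The shares of all tested genes were 4.70% and 12.3%. Jun, the partner of Fos proteins in AP-1, was at 213, 162, 37.8 and 58.2 CPM (difference 1.96, SE 0.26, adjusted p = 0.0249), and the growth-induced factor gene Egr1 at 77.3, 78.5, 14.9 and 31.5 CPM. Fos was at 182, 87.9, 16.7 and 40.2 CPM and was not called (adjusted p = 0.0573). The list median was 1.10, or 0.64 without tumor 1, and 3 members were called with edgeR and 10 with DESeq2. Myc went the other way, at 94.2, 112, 154 and 163 CPM (adjusted p = 0.0443, and 0.055 with TMM scaling, 0.056 with edgeR and 0.069 with DESeq2).

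Genes that define the red cell gave few calls. Of 28 tested erythroid core genes 1 was called, 19 lay above 0 and the median was 0.11 (0.16 without tumor 1). Summed levels were 12451, 11901, 12402 and 10958 CPM. Gata1, the master regulator of the lineage, was at 164, 169, 214 and 173 CPM (difference -0.21, SE 0.14, adjusted p = 0.289). Alas2, the first heme synthesis enzyme of red cells, was at 397, 323, 305 and 317 CPM (0.20, SE 0.13, adjusted p = 0.302). Epor was at 181, 178, 184 and 151 CPM (0.11, SE 0.13, adjusted p = 0.568). The called member was Cited4, a coactivator, at 23.002, 22.8, 109 and 100.4 CPM (difference -2.14, SE 0.12, adjusted p = 0.0200), with 42.2 CPM in the control.

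A ceiling on counts bears on this group. No gene of at least 200 exon bases exceeded 0.955 to 1.14 reads per base of exon, depending on the library, and 0.554 reads per base was the erythroid core median. Of all tested genes 171 reached 0.5 reads per base in a spleen group, and 7.60% of these were called, with a median absolute difference of 0.23 against 0.46 over all tested genes. Whether this ceiling narrows differences of abundant red cell genes was not tested.

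Globin genes, the main products of maturing red cells, were not called (0 of 7 by limma, edgeR and DESeq2, 0 at unadjusted p under 0.05). Together the 7 summed to only 198, 159, 144 and 158 CPM, below Tfrc alone in every spleen library. Whether values this low reflect the globin RNA of the cells was not tested, so the lack of calls does not show equal globin RNA. The beta chain gene Hbb-bt was at 59.3, 50.0, 47.7 and 51.4 CPM. The alpha chain gene Hba-a1 was at 18.04, 14.9, 12.2 and 15.4 CPM. Both have near-identical neighbors among which reads may be split. The embryonic Hbb-y was at 1.39, 1.34, 3.19 and 2.17 CPM (adjusted p = 0.125). Of 16 terminal maturation genes 0 were called by limma or edgeR (6 at unadjusted p under 0.05) and 2 by DESeq2, and 15 lay above 0 with a median of 0.25.

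Progenitor regulators, in contrast, were mostly lower in UVB among those called. Kit was at 38.1, 24.3, 75.0 and 97.1 CPM (difference -1.46, SE 0.27, adjusted p = 0.0365), with 89.3 CPM in the control. Gata2, the GATA factor of stem and progenitor cells that Gata1 replaces, was at 2.38, 1.17, 10.6 and 19.2 CPM (difference -2.50, SE 0.41, adjusted p = 0.0314). Myb, which keeps precursors immature, was at 54.9, 34.1, 101 and 145 CPM and at 251 CPM in the control. In all 3 genes UVB 2 was the lowest library and tumor 2 the highest of the 4, so tumor 2, not tumor 1, was farther from UVB. Runx1, at 126, 137, 91.9 and 94.8 CPM, was the member called higher in UVB, a call lost with DESeq2 (adjusted p = 0.063) and with no filter on low values (0.066). Over the list 4 of 16 tested genes were called higher in tumor (Kit, Gata2, Myb and Myc) and 1 higher in UVB, beside 12.3% and 4.70% of all tested genes. The list median was -0.33 (-0.22 without tumor 1), and 7 of the 16 lay above 0.

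Erythropoietin and STAT5 targets split by direction, with 4 of 18 called higher in tumor and 2 higher in UVB, beside 12.3% and 4.70% of all tested genes. The list median was -0.42 (-0.41 without tumor 1), with 7 of 18 above 0. Osm, the cytokine oncostatin M, was at 7.54, 8.39, 61.6 and 43.8 CPM (difference -2.56, SE 0.24, adjusted p = 0.0200). Stat5a itself was at 47.2, 49.0, 109 and 107 CPM (difference -1.15, SE 0.10, adjusted p = 0.0200). Socs3, a feedback inhibitor of cytokine receptors, was at 15.9, 26.2, 72.9 and 57.3 CPM (difference -1.62, SE 0.30, adjusted p = 0.0365), and the inhibitor Spry1 was the fourth, at 1.19, 0.839, 12.1 and 5.97 CPM. Tumor libraries were well above the control for Osm and Socs3, whose control levels were 12.2 and 10.8 CPM. Fam132b, now named Erfe, encodes erythroferrone, the hormone by which red cell precursors lower hepcidin. It was at 23.2, 77.3, 283 and 211 CPM and just missed the threshold (difference -2.50, SE 0.59, adjusted p = 0.0545). Cish, another STAT5 target, was at 33.9, 69.3, 197 and 127 CPM (adjusted p = 0.0569). The genes called higher in UVB were the cell cycle inhibitor Cdkn1b, at 321, 305, 203 and 168 CPM, and Egr1. Stat5b, Pim1 and Bcl2l1, the survival target of STAT5, were not called.

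Hedgehog and BMP genes had 2 of 15 called in each direction, beside 4.70% (UVB) and 12.3% (tumor) of all tested genes. Of the 15, 12 lay above 0, the median was 0.92 (0.58 without tumor 1), and DESeq2 called 4 higher in UVB and 2 higher in tumor. Smo, the signal transducer of hedgehog, was at 6.15, 3.86, 49.3 and 53.7 CPM, with 19.9 CPM in the control (difference -3.15, SE 0.26, adjusted p = 0.0200). Ptch1, its inhibitor and the receptor for hedgehog ligands, was at 35.3, 36.2, 66.7 and 73.4 CPM. Id2, a target of BMP signals, was at 104, 96.0, 30.7 and 52.99 CPM, a call lost with a pseudocount of 0.25 (adjusted p = 0.05). The receptor gene Bmpr1a was at 4.56, 3.19, 0.710 and 0.904 CPM, which is 40 reads against 7, a call lost with no filter on low values (adjusted p = 0.074). The ligand gene Bmp4 had 0 reads in all 4 spleen libraries, which allows up to 3 reads in each.

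Among 18 heme and iron genes, 2 were called higher in tumor, a share near the 12.3% of all tested genes, and 2 higher in UVB, with a median of 0.06. Tfr2, the second transferrin receptor, was at 67.8, 71.8, 198 and 163 CPM (difference -1.35, SE 0.13, adjusted p = 0.0204). Steap3, the endosomal ferrireductase of red cell precursors, was at 117, 114, 255 and 232 CPM (difference -1.07, SE 0.10, adjusted p = 0.0200). Hfe, a partner of the transferrin receptor that is mutated in hemochromatosis, was at 146, 150.2, 39.0 and 67.1 CPM. Ftl1, the ferritin light chain, was at 57.1, 46.0, 29.1 and 30.9 CPM, a call lost with DESeq2 (adjusted p = 0.057). Hmox1, which degrades heme, was at 295, 269, 153 and 200.04 CPM (adjusted p = 0.0543).

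**Figure D5:**
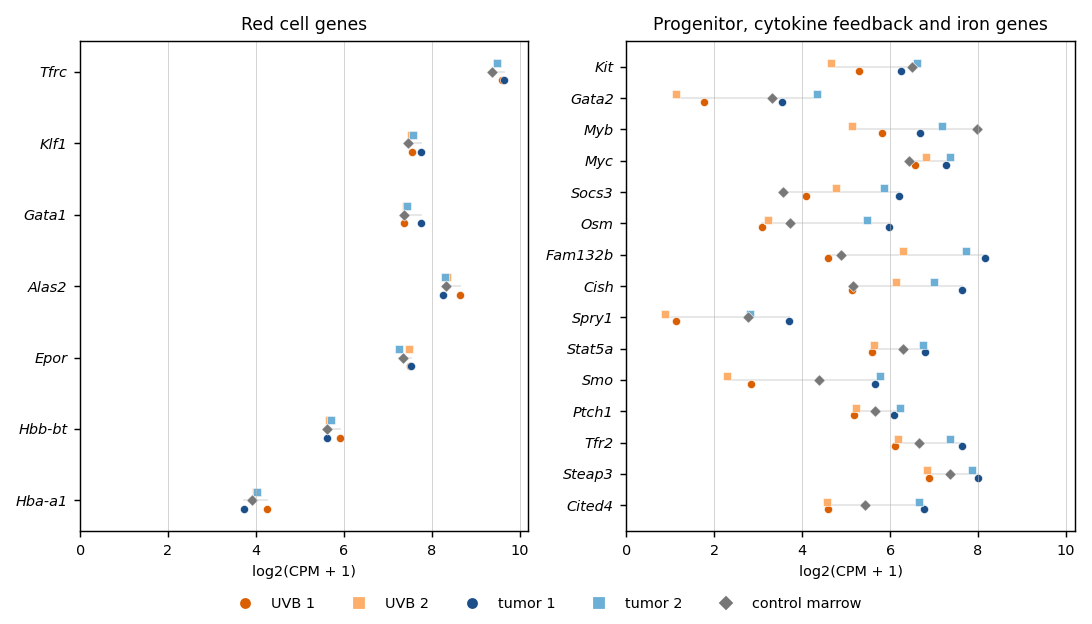
Level in each library, as log2(CPM + 1), of 7 red cell genes (left) and 15 progenitor, cytokine feedback, hedgehog and iron genes (right). On the left the UVB and tumor points of each gene overlap or lie close. On the right both tumor libraries lie above both UVB libraries for every gene shown, Fam132b and Cish included although neither was called. The genes on the right were picked, so their common direction describes the choice. Runx1, Cdkn1b, Egr1, Id2, Bmpr1a, Hfe and Ftl1, called higher in UVB in the same lists, are left out.

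Macrophage markers had more calls than any other list of leukocyte markers. Of 18 tested 7 were called higher in UVB and 0 higher in tumor, 18 of 18 lay above 0, and the median of 1.16 was 0.75 without tumor 1. Siglec1, the sialoadhesin of island and marginal zone macrophages, was at 162, 177, 19.3 and 33.8 CPM (difference 2.68, SE 0.28, adjusted p = 0.0209), with 368 CPM in the control. Cd163, the hemoglobin scavenger receptor, was at 410, 314, 113 and 146 CPM, and the mannose receptor gene Mrc1 at 596, 535, 173 and 269 CPM. Mertk and Axl, receptors that take up dying cells and expelled nuclei, were called as well, together with Vsig4 and C1qc. With DESeq2 all 18 were called and with edgeR 8. Monocyte markers had 2 of 14 called, Fcgr1, at 93.0, 76.5, 20.2 and 30.0 CPM, and F13a1. All 14 lay above 0, with a median of 1.19 (0.75 without tumor 1), and DESeq2 called 8.

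Other cell types gave few calls. Cd4 was the 1 called among 14 T and NK markers, at 70.0, 51.2, 9.22 and 21.3 CPM, and this gene is also transcribed in mouse dendritic cells. Prdm1 was the 1 of 10 plasma cell markers, higher in UVB. Zbtb46, of dendritic cells and endothelium, was the 1 of 13 dendritic markers, at 40.1, 41.8, 106 and 70.0 CPM and higher in tumor, and it was not called with edgeR (adjusted p = 0.054). Gp5, of platelets, was higher in tumor (1 of 12), as was Gata2 for mast cells (1 of 4). Stromal markers gave Lepr higher in UVB and Sparc higher in tumor (10 tested). Neutrophil and pro-B and pre-B markers had 0 called by limma (6 and 1 at unadjusted p under 0.05), while DESeq2 called 7 of the 18 neutrophil genes.

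Calls among endothelial markers were mostly higher in tumor. Of 15 tested 5 were called higher in tumor (Egfl7, Eng, Kdr, Stab1 and Tek) and 1, Stab2, higher in UVB, with a median of -1.17 (-1.14 without tumor 1). Eng, an accessory TGF-beta receptor of endothelium that early erythroid cells also carry, was at 40.7, 31.4, 117 and 95.5 CPM. Egfl7, a secreted vessel protein and the host gene of a microRNA, was at 3.37, 2.18, 28.2 and 28.8 CPM. Stab2, a scavenger receptor of splenic sinus endothelium, was at 227, 192, 64.4 and 104 CPM. Emcn, found on most venous and sinus endothelium, had 0 reads in both UVB libraries and was at 0.355 and 0.543 CPM in the tumor libraries, 1 and 2 reads after the added read is taken off. The summed level of the list, 590 and 570 CPM in UVB and 423 and 538 CPM in tumor libraries, included Pecam1, at 212, 214, 59.8 and 148 CPM, which was not called (adjusted p = 0.12).

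Genes by which erythroid cells are thought to dampen immunity gave few calls with limma. Of 17 tested 2 were called, both higher in UVB, beside 4.70% of all tested genes, and DESeq2 called 6. The list median was 1.13, or 0.53 without tumor 1. Both UVB libraries lay above both tumor libraries for 12 of the 17, beside 34.8% of all tested genes. They lay below both for 2, beside 38.4%. Vsir, listed as 4632428N05Rik, encodes the checkpoint ligand VISTA and was at 328, 322, 193 and 185 CPM (difference 0.78, SE 0.09, adjusted p = 0.0216). Havcr2, which encodes the inhibitory receptor TIM-3, was at 34.1, 29.4, 7.45 and 11.8 CPM. Cd274, the gene of PD-L1, was at 109.9, 110.4, 21.3 and 75.8 CPM (adjusted p = 0.147), so tumor 2 lay nearer to the UVB libraries than to tumor 1. Tgfb1 was at 213, 188, 148 and 174 CPM (adjusted p = 0.144). Artn, the neurotrophic factor artemin, was at 14.7, 12.9, 28.0 and 12.8 CPM (difference -0.44, SE 0.41, adjusted p = 0.446). Only tumor 1 was high in Artn, and without it the difference was 0.09. Of 18 chemokines and cytokines the 1 called was Osm.

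Among 20 adhesion and surface glycoproteins, Podxl, Spn and Itga5 were higher in tumor and Cd36 and Lphn3 higher in UVB. Spn, the sialomucin CD43 of leukocytes and progenitors, was at 66.4, 66.3, 236 and 247 CPM (difference -1.85, SE 0.09, adjusted p = 0.0200). Itga5, a fibronectin receptor subunit, was at 22.4, 13.4, 62.3 and 77.4 CPM. Lphn3, an adhesion receptor now called Adgrl3, was at 56.9, 61.2, 20.9 and 31.7 CPM against 0.349 CPM in the control, a call lost with a pseudocount of 0.25 (adjusted p = 0.054).

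Stress-linked lists held calls in both directions, to be read beside 4.70% (UVB) and 12.3% (tumor) of all tested genes. Hypoxia targets had 3 of 18 higher in UVB (Ddit4, P4ha1 and Kdm3a) and 4 higher in tumor (Vegfa, Ero1l, Pdk1 and Egln1), and the Kdm3a call was lost with edgeR (adjusted p = 0.053). Vegfa, the vascular growth factor, was at 2.97, 3.19, 23.1 and 23.5 CPM (difference -2.57, SE 0.20, adjusted p = 0.0200), and P4ha1, a collagen hydroxylase, at 109.9, 96.6, 39.4 and 51.4 CPM. Glucocorticoid targets had 3 of 15 higher in UVB, Ddit4, Cd163 and the kinase gene Sgk1, and 3 higher in tumor, Klf9 and the metallothionein genes Mt1 and Mt2. Sgk1 was at 117, 101, 22.7 and 34.4 CPM, and Mt2 at 13.7, 14.9, 43.3 and 42.1 CPM. Members of the same list thus lay on opposite sides with close replicates. Targets of p53, the DNA damage factor, had 2 of 19 in each direction, with the stress genes Trp53inp1 (259, 257, 135 and 124 CPM) and Sesn1 higher in UVB and the nuclease gene Aen (35.5, 37.1, 86.6 and 89.3 CPM) and Trp53 higher in tumor. The Sesn1 call was lost with edgeR (adjusted p = 0.052), as was that of Trp53 (0.072).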

How the data were processed

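Polyadenylated RNA was isolated with Trizol and sequenced from Illumina TruSeq libraries, per the labels' protocols, with alignment and counting by STAR and HTSeq on build mm10, per the submitters' processing notes. Not given in the sources used here are tool versions, the annotation, whether counting used strand, and whether duplicates were removed. The authors deposited linear CPM values for 39179 genes in 2 tables, with identical control values in both (39179 of 39179). The values show that 1 read was added to every gene before scaling, so a value worth 1 read stands for 0 reads. All values (100%) came out as whole reads (relative tolerance 1e-06), and these reads were used for edgeR and DESeq2. The deposited log2 fold changes were not used.

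All 5 libraries were fitted together with limma 3.58.1 (limma-trend, R 4.3.3) on log2(CPM + 1), two-sided, with 2 residual degrees of freedom, and the single control was taken to have the spread of the spleen groups. Benjamini-Hochberg adjustment ran over 15006 genes. Alternatives were edgeR 4.0.16, DESeq2 1.42.0 (3201 genes with no adjusted p), TMM scaling, other pseudocounts and filters, a replicate block and each library left out. Ratios of reads carry exact 95% intervals. The fits were tested on simulated reads. Positions and exon lengths are from GENCODE M21 on GRCm38 (37693 of 39179 identifiers found), and promoters from RefSeq on GRCm38.p6. The members and gene lists (43 lists, 767 of 769 entries matched) were chosen with earlier results of these data known. Named genes are the 12 largest called differences each way among genes reaching a mean of 10 CPM in the higher group, without overlap and with no predicted, pseudogene or antigen receptor entry. Up to 3 called members per list and direction, by smallest p, and 22 preset genes, called or not, were added. Others are members of a counted list. A few named genes are not reported here.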

Additional observations from a re-analysis of the deposited data

How the results depend on the processing

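Calls depended on the libraries and on the treatment of the replicate numbers. With 1 library left out, the number of called genes ran from 0 (without either UVB library) to 7900 (without tumor 2), those higher in UVB from 0 to 4086 and those higher in tumor from 0 to 3814, and without tumor 1 they were 5737, 2726 and 3011. In the replicate block fit 0 genes were called in either direction (5428 at unadjusted p under 0.05). Deviations of same-numbered libraries correlated at -0.111 over 15006 genes, and a crossed replicate block, chosen after seeing the data, called 3071 genes, 1291 higher in UVB and 1780 higher in tumor. All 111 called genes that the naming rule chose lost their call in the replicate block fit. Of the 111, 8 lost it with edgeR and 12 with DESeq2. DESeq2 called 1421 higher in UVB and 1146 higher in tumor, and no filter on low values gave 1448 higher in UVB. Other settings kept each count within 1.5 times of 2557, 705 and 1852. Uncalled genes changed sign. For Tfrc the difference was 0.029 with TMM scaling, 0.030 with edgeR and 0.034 with DESeq2, and ran from -0.101 (without tumor 2) to 0.061 (without tumor 1). For Mki67 it was 0.044 with TMM scaling and with edgeR and 0.048 with DESeq2, and ran from -0.084 to 0.073 with 1 library left out. With 1 library left out Epor ran from -0.039 to 0.25 and Artn from -0.975 to 0.094. The cause was not tested. Of the 43 list medians, 14 moved by more than the spread between replicates without tumor 1 and 13 without tumor 2. At 0.168 to 0.198 CPM for 1 read, genes of a few CPM rest on few reads. Whether the ceiling near 1 read per exon base narrows differences was not tested.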

Other observations

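Whole gene families were also counted by the form of their symbols, a choice made after their values were seen, so the counts describe and do not test. Mitochondrial ribosomal proteins, which translate the genes of the mitochondrion, had 47 of 75 called higher in tumor and 0 higher in UVB, beside 12.3% and 4.70% of all tested genes. Their summed level was 2139, 2065, 3635 and 3535 CPM in UVB 1, UVB 2, tumor 1 and tumor 2, with 2557 CPM in the control. Cytosolic aminoacyl tRNA synthetases, which charge tRNAs, had 15 of 20 called higher in tumor. Of the subunits of RNA polymerases I, II and III 17 of 28 were called higher in tumor, of the nucleoporins 13 of 20, and of the importins and exportins 10 of 19. The chaperonin CCT, which folds actin and tubulin, had 8 of 8, with Cct3 at 120, 110, 191 and 194 CPM and all 8 differences between -0.87 and -0.46. Translation initiation factors (21 of 53) and proteasome subunits (16 of 38) had smaller shares, and no member of these families was called higher in UVB. Core and linker histone genes had 0 of 51 called by limma.

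Other families had calls higher in UVB. Of 12 Toll-like receptors 3 were called (Tlr4, Tlr8 and Tlr11) and 12 of 12 lay above 0, with summed levels of 968, 891, 186 and 497 CPM. Potassium channel subunits had 6 of 30 called higher in UVB and 1 higher in tumor. Kcnj16, named after its values were seen, was at 139, 138, 15.97 and 36.4 CPM with 10.5 CPM in the control. Zinc finger genes named Zfp had 6 of 312 called higher in UVB and 15 higher in tumor, both under the shares of all tested genes.

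Other genes were named after their values were seen. Tcrg-C1, a constant gene of the T cell receptor gamma locus, was at 0.198, 0.336, 20.4 and 28.9 CPM and at 1.40 CPM in the control, although summed T and NK markers were higher in the UVB libraries. Ptgis, the prostacyclin synthase gene, was at 73.0, 60.9, 7.98 and 14.7 CPM against 0.872 CPM in the control. Col4a1 and Col4a2, the paired chains of basement membrane collagen, were at 3.97, 3.02, 28.6 and 31.8 CPM and at 2.78, 1.68, 19.5 and 21.7 CPM. Cpd, a carboxypeptidase gene, was at 82.7, 84.1, 545 and 600.3 CPM, and Dnah8, a dynein heavy chain gene, at 20.2, 24.5, 158 and 167 CPM. Among noncoding RNAs, the snoRNA host genes Snhg1 and Snhg4, the microRNA host Mir17hg and Pvt1, the neighbor of Myc, were called higher in tumor. Neat1, the RNA scaffold of paraspeckles, was called higher in UVB at 236, 260 and 147, 165 CPM, as was Meg3, an imprinted RNA, at 12.5, 6.88 and 1.42, 1.09 CPM. Immunoglobulin V segments, 204 in all, summed to 1675, 1206, 592 and 1186 CPM, so UVB 2 and tumor 2 were alike and tumor 1 was lowest.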
